A study of Mus musculus with 15 samples.

Results

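The genes described here encode 9 enzymes of mitochondrial fatty acid oxidation, Cpt1a, Cpt2, Acadm, Acadl, Acadvl, Hadha, Hadhb, Acaa2 and Eci1, in mouse hematopoietic stem cells (HSC). They were chosen by name, and all 9 had a row among the 16154 genes of the count table. RNA of HSC from 15 female C57BL/6 mice was sequenced with 1 library per mouse, in 3 groups of 5. Young mice were 6 to 12 weeks old and received nothing, aged mice were 20 to 24 months old and received nothing, and NR-treated aged mice were of the same 20 to 24 months and received nicotinamide riboside (NR), a vitamin B3 precursor of NAD, at 3 mg/ml in drinking water for 2 months. The groups ask what differs with age, and what differs between aged mice with and without NR. Young mice with NR were not analysed here, so NR was compared in aged mice alone. HSC were sorted by the study as Lin-Sca-1+cKit+CD150+CD48- cells, a gate in which some cells are not stem cells, and each library came from 20000 to 25000 cells.

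Fatty acids reach the mitochondrial matrix as carnitine esters and are then shortened in repeated cycles of dehydrogenation, hydration, a further dehydrogenation and thiolysis, which yield acetyl-CoA, FADH2 and NADH. The second dehydrogenation uses NAD+ as its acceptor, so the pathway draws on the pool that NR feeds. In mouse HSC, fatty acid oxidation downstream of the nuclear receptor PPAR delta is known to take part in stem cell maintenance.

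Total counts ranged from 764119 in aged replicate 2 to 13318989 in aged replicate 3, and from 2122221 to 3631395 in the young and NR-treated libraries. Levels are given as CPM, that is counts relative to a library size scaled by the trimmed mean of M-values (TMM), and a value of 3 counts or fewer was not told from absence. The summed HSC markers (Kit, Ly6a, Slamf1, Procr, Mecom, Hlf and Tek) made up 0.118% to 0.174% of the counts in all libraries, and all 7 were detected. Single markers differed. In young, aged and NR-treated HSC, Ly6a had means of 130.7, 301.1 and 239.1 CPM, Procr 68.7, 165.6 and 134.0 and Slamf1 42.7, 76.5 and 53.7. These rose with age (edgeR adjusted p between 0.000103 and 0.000373). Kit, Mecom, Hlf and Tek had lower means with age (edgeR adjusted p between 0.0986 and 0.839). Markers of mature erythroid, myeloid, B, T and NK cells (29 of 31 in the table) made up 0.789% to 1.14% of the counts in aged libraries and 0.0598% to 0.145% after NR. Young libraries held 0.0831% to 1.17%, the highest in young replicate 3. Erythroid, B cell, and neutrophil and monocyte markers made up most of this share. T and NK markers had medians of 0.0098%, 0.0093% and 0.0099% in young, aged and NR-treated libraries. Macrophage markers had medians of 0.0027%, 0.0018% and 0.0014%. In young replicate 3, neutrophil and monocyte markers came to 0.802% and B cell markers to 0.0731%. After NR, 4 of these 29 markers (C1qa, Adgre1, Ms4a1 and Cd3g) were at or under 3 counts in every library. The progenitor markers Cd48, Flt3 and Cd34 summed to 0.0171% to 0.0245% in young, 0.00864% to 0.0111% in aged and 0.00787% to 0.0102% in NR-treated libraries. Most of this sum was Cd34, with means of 175.5, 73.6 and 78.5 CPM in young, aged and NR-treated HSC. Flt3 had 14.5, 3.24 and 5.46 CPM. Cd48, which the gate excludes, was highest in aged HSC instead, with means of 12.2, 24.2 and 3.50 CPM. Platelet markers summed to 0.0439% to 0.134% in all libraries, and stroma and adipocyte markers to at most 0.00316%. In bulk samples, a change in the mix of cells and a change in the RNA of each cell cannot be told apart, and this holds for every difference below. Y-linked transcripts came to 103.6 CPM in young replicate 1 and 107.7 CPM in young replicate 5 although the labels give females, against at most 3.16 CPM in any other library, so results that rest on the young group were also computed without this pair.

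The promoters of the 3 enzymes whose groups differed, Cpt1a, Acadm and Acadl, are shown because the motifs named for this pathway differ among them. Sequences are from RefSeq (GRCm38.p6), cover 250 bases before to 50 bases after the start annotated there, and run 5′ to 3′ on the gene's strand. For Cpt1a the whole window lies inside the gene as given by GENCODE M21, which starts it at 3322334. Motif positions below are counted from the RefSeq start. Of the 9 genes, 8 had an entry and Acaa2 was not matched. Capitals mark the nuclear receptor hexamer AGGTCA on either strand, the NRF1 core GCATGCGC and the CAAT box CCAAT. The letters of the NRF1 core were chosen after the windows had been seen.
Cpt1a (19, 3323051 to 3323350, plus strand): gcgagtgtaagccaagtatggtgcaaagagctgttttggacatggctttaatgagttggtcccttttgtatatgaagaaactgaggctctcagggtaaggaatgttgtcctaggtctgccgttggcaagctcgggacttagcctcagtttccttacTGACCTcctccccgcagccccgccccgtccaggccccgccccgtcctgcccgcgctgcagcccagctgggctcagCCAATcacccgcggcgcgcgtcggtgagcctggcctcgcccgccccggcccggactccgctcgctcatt
Acadm (3, 153944594 to 153944893, minus strand): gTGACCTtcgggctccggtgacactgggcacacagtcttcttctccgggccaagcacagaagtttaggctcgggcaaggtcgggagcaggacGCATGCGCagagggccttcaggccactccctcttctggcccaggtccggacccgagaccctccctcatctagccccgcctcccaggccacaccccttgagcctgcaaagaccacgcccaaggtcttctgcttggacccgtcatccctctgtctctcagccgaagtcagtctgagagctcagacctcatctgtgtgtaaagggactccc
Acadl (1, 66863260 to 66863559, minus strand): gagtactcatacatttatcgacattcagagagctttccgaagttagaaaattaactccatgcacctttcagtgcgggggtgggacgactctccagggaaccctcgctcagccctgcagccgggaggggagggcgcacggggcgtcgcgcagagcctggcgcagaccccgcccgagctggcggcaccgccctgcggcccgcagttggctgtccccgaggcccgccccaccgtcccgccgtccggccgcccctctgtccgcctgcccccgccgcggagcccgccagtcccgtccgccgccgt

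The hexamer occurred in 3 of the 8 windows, at position -94 of Cpt1a and -249 of Acadm on the opposite strand and at -87 of Acadvl on the same strand, and in 16.3% of all 32851 windows. The direct repeat AGGTCANAGGTCA, to which PPAR and RXR bind as a pair, was in none of the 8 windows and in 0.0396% of all. TCAAGGTCA, the extended site of ERR alpha, was also in none, against 0.423% of all. The NRF1 core at -158 of Acadm was found in 2.71% of all windows, and the CAAT box at -19 of Cpt1a in 37.4%. As the NRF1 letters were chosen after the windows had been seen, their share is no fair comparison for Acadm. These are matches of letters in a short window and say nothing of binding, and both longer motifs contain the hexamer. Acadl held none of the letters searched, and its window had the highest GC content of the 8, at 70.3% against a median of 52.7% over all windows.

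Hadha and Hadhb encode the alpha and beta subunits of the mitochondrial trifunctional protein and are transcribed in opposite directions from RefSeq starts 272 bases apart. GENCODE M21 places these starts closer, at 30155162 for Hadha and 30155248 for Hadhb. Their windows overlap in 228 bases, chr5:30155003-30155230 (plus strand), shown because both genes share it and none of the letters searched occur in it.
Hadha and Hadhb: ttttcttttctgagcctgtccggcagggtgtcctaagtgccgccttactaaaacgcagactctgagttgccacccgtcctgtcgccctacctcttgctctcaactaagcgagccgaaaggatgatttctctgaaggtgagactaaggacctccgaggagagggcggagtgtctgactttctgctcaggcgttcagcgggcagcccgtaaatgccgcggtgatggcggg

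Between young and aged HSC, Acadl and Acadm were higher with age, and no enzyme of the 9 was lower. Acadl, long-chain acyl-CoA dehydrogenase, was 1.44-fold higher and Acadm, the medium-chain enzyme, 1.29-fold higher. In NR-treated aged HSC, Acadl stood at the aged level and Acadm near the young level. Their Cpt1a, which forms acylcarnitines at the outer mitochondrial membrane and is the entry step that malonyl-CoA inhibits, was 1.51-fold higher than in young HSC. Neither Acadm nor Cpt1a passed between NR-treated and aged HSC (edgeR adjusted p = 0.0904 and 0.0771). The Acadm rise with age was called in 2 of the 15 fits without 1 library. A gene was called where edgeR's quasi-likelihood test gave a p under 0.05 once adjusted for all 16154 genes by the Benjamini-Hochberg method. With age, 2 of the 9 enzymes rose, against 9.68% of all genes that rose and 9.63% that fell, and 7 of the 9 fitted values were above 0. The median log2 fold change of the 9 was 0.23, against -0.03 over all genes.

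**Figure D1:**
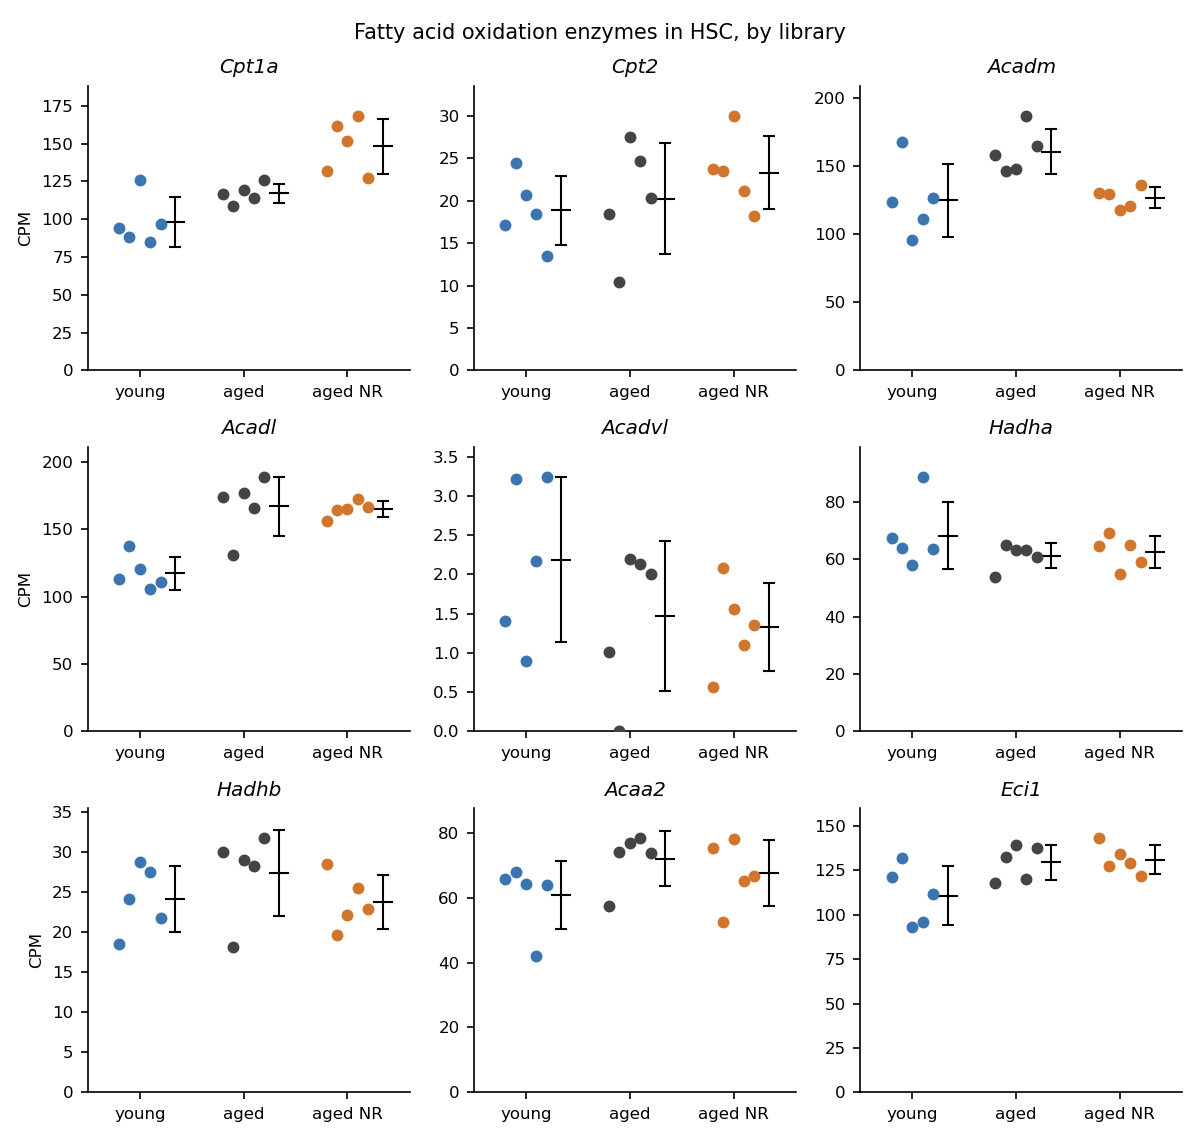
CPM of each of the 9 enzymes (vertical axes from 0) in the 5 libraries of each group, with 1 point per library and bars for mean ± SD. Acadl is at 155.9 to 172.4 CPM in all NR-treated libraries and at most 137.4 CPM in young ones, and Acadvl is near 0 throughout.

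In young HSC, Acadl (ENSMUSG00000026003.5, chromosome 1, 66830839 to 66863277 on GRCm38) had 113.0, 137.4, 120.3, 105.9 and 110.8 CPM in replicates 1 to 5. In aged HSC it had 173.8, 131.0, 177.1, 165.9 and 188.6 CPM. After NR it had 155.9, 164.6, 165.3, 172.4 and 166.9 CPM. All 5 NR-treated libraries and 4 of the 5 aged ones were above every young library, and the groups young and aged overlapped through aged replicate 2, the library of the lowest depth, where Acadl had 101 counts. The means were 117.5 ± 12.3 CPM in young, 167.3 ± 21.8 in aged and 165.0 ± 5.94 in NR-treated HSC (SD, n = 5). The log2 fold change was 0.52 ± 0.10 (SE, edgeR adjusted p = 0.0019) between aged and young and 0.49 ± 0.10 (edgeR adjusted p = 0.00803) between NR-treated and young. Against aged HSC, the NR-treated group differed by -0.03 on the log2 scale, with a 95% interval of -0.25 to 0.18 (edgeR adjusted p = 0.887). Acadl was called in all 15 fits that left out 1 library, in both comparisons with young HSC. Without young replicates 1 and 5 together it was called with age, but after NR against young HSC its log2 fold change was 0.45 with an edgeR adjusted p of 0.0666.

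Acadm (ENSMUSG00000062908.12, chromosome 3, 153922357 to 153944632) had 123.5, 168.0, 96.1, 111.4 and 127.0 CPM in the young libraries. It had 158.1, 146.6, 148.2, 186.7 and 164.9 CPM in the aged libraries. After NR the values were 130.5, 129.7, 118.2, 120.9 and 136.2 CPM. Every NR-treated library was thus below every aged one, whereas young replicate 2 lay among the aged libraries. The means were 125.2 ± 26.8 CPM in young, 160.9 ± 16.2 in aged and 127.1 ± 7.37 in NR-treated HSC (SD, n = 5). The rise with age was 0.37 ± 0.12 on the log2 scale (SE, edgeR adjusted p = 0.0448), and this call was held in 2 of the 15 fits without 1 library, those without young replicate 2 or aged replicate 2, with edgeR adjusted p between 0.00356 and 0.111 over the 15. It was also lost without young replicates 1 and 5 together (edgeR adjusted p = 0.133). NR-treated HSC differed from aged HSC by -0.34 ± 0.12 (SE), which did not pass over all genes (edgeR adjusted p = 0.0904). Against young HSC the difference after NR was 0.02, with a 95% interval of -0.24 to 0.28.

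For the carnitine step, Cpt1a (ENSMUSG00000024900.5, chromosome 19, 3322334 to 3385733) had 94.4, 88.0, 126.2, 84.9 and 97.1 CPM in young HSC. The aged libraries had 116.9, 109.0, 119.5, 114.1 and 126.1 CPM. The NR-treated libraries had 132.2, 161.9, 152.1, 168.0 and 127.2 CPM. The NR-treated values lay above every aged and every young value, and young replicate 3, at 126.2 CPM, was level with the highest aged library, at 126.1 CPM. The other 4 young libraries were below every aged one. Young replicate 3 also had the highest share of mature cell markers among the young, most of it from neutrophil and monocyte markers. The part of those cells in its value was not tested. Means were 98.1 ± 16.4, 117.1 ± 6.36 and 148.3 ± 17.98 CPM in young, aged and NR-treated HSC (SD, n = 5). The difference of NR-treated from young HSC was 0.60 ± 0.12 on the log2 scale (SE, edgeR adjusted p = 0.00388), called in all 15 fits without 1 library and also without young replicates 1 and 5 together. With age the difference was 0.26 ± 0.12 (SE, edgeR adjusted p = 0.121), and it passed only without young replicate 3, where it was 0.37 (edgeR adjusted p = 0.0248). The difference of NR-treated from aged HSC was 0.33 ± 0.12 (SE, edgeR adjusted p = 0.0771).

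Between NR-treated and aged HSC, 0 of the 9 enzymes passed the quasi-likelihood test in edgeR, against 3.88% of all genes called higher and 4.18% called lower. At an unadjusted p under 0.05 there were 2, Cpt1a and Acadm, beside 4048 of all 16154 genes. DESeq2 called 1, Cpt1a, with an adjusted p of 0.0387, and the edgeR likelihood ratio test and limma voom called 0. The same 2 genes were the enzymes whose NR-treated and aged libraries did not overlap, where 8.60% of all genes showed no overlap. The median over the 9 was -0.03 on the log2 scale, against 0.02 over all genes. The aged libraries enter both this comparison and that with young HSC, so the fitted values of a gene in the 2 comparisons share the error of the aged group.

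NR-treated HSC differed from young HSC in 2 of the 9 enzymes, Cpt1a and Acadl, both higher, against 2.56% of all genes called higher and 1.91% called lower. For both, no library overlapped, as was found for 4.74% of all genes. None of the 9 showed such a separation between aged and young HSC, where 12.4% of all genes did. The median of the 9 after NR against young was 0.15, and that of all genes was -0.00.

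**Figure D2:**
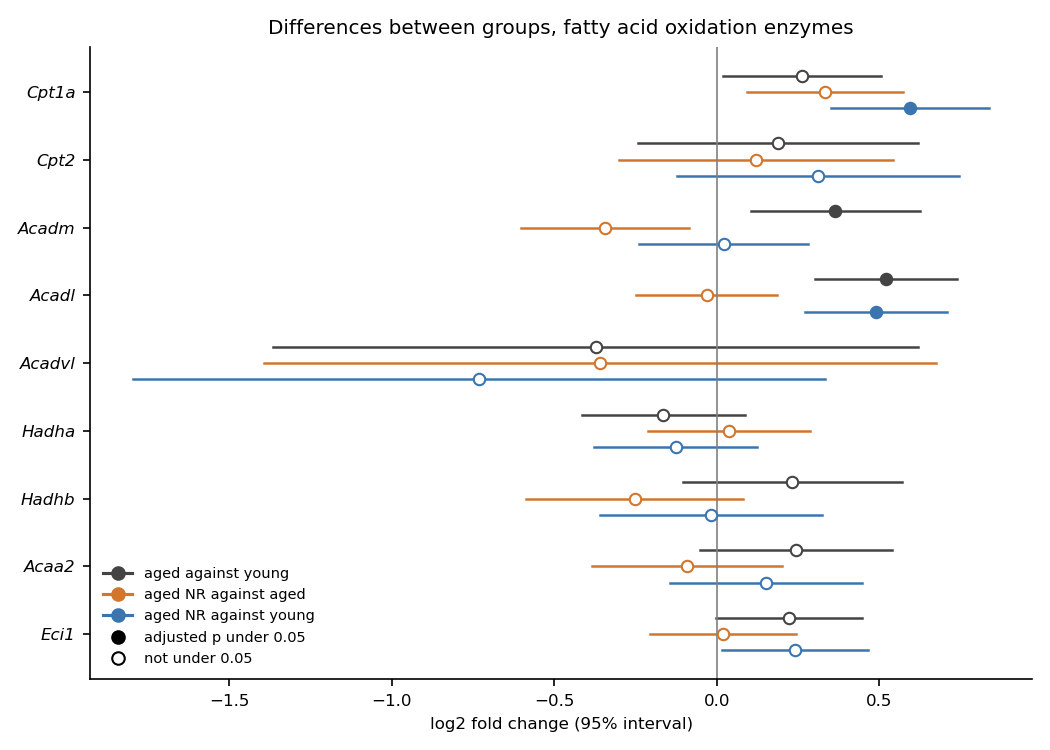
Log2 fold change of each enzyme (horizontal axis) with its 95% interval, in black for aged against young, orange for NR-treated aged against aged and blue for NR-treated aged against young, with filled points where the edgeR adjusted p was under 0.05. Acadl and Acadm are filled with age, Cpt1a and Acadl are filled after NR against young, and no orange point is filled.

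Acadl and Acadm act on overlapping chain lengths, and their counts were set against each other within each library, as a description chosen after their values were seen. The ratio of Acadl to Acadm counts was 0.915, 0.818, 1.25, 0.951 and 0.873 in young HSC. In aged HSC it was 1.10, 0.894, 1.195, 0.889 and 1.14. After NR it was 1.195, 1.27, 1.40, 1.43 and 1.23, so that 4 NR-treated libraries lay above every aged library and the fifth was level with the highest aged one. Counts of 2 genes in 3′ biased libraries do not give the ratio of their proteins, and whether NR changed the 2 genes by different amounts was not tested.

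The third acyl-CoA dehydrogenase of the 9, Acadvl, which takes very long chains at the inner membrane, was close to the detection limit. It had 0 to 26 counts per library, with means of 2.19 ± 1.05 CPM in young, 1.47 ± 0.953 in aged and 1.33 ± 0.562 in NR-treated HSC (SD, n = 5), and aged replicate 2 had no count. All 254 bases of its last exon lie within exons of Dvl2, which is transcribed from the other strand, and 1151 exon bases are shared in all. The strand setting of the counting was not given in the sources used here, and reads of the 2 genes cannot be told apart without it. The 95% interval of its difference with age was -1.37 to 0.62 on the log2 scale, wide enough that a change of 1 log2 unit downward could not have been told from none.

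Cpt2, which turns acylcarnitines back into acyl-CoA on the matrix side, ranged from 13.5 to 24.5 CPM in young, 10.4 to 27.5 in aged and 18.2 to 29.9 in NR-treated HSC. The lowest value was that of aged replicate 2, from 8 counts. Its means were 18.9 ± 4.09, 20.3 ± 6.57 and 23.3 ± 4.31 CPM (SD, n = 5), and edgeR adjusted p was between 0.474 and 0.747 in the 3 comparisons. The groups overlapped in every comparison.

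For the trifunctional protein, Hadha (ENSMUSG00000025745.12), whose product carries the hydratase and the NAD-dependent dehydrogenase, had 67.4, 63.9, 57.9, 88.5 and 63.6 CPM in young HSC. Aged libraries held 53.9, 64.9, 63.1, 63.3 and 60.9 CPM, and NR-treated ones 64.7, 69.2, 54.8, 65.0 and 59.1 CPM. Its 3 group means, 68.3 ± 11.8, 61.2 ± 4.33 and 62.6 ± 5.61 CPM (SD, n = 5), differed by less than the spread among young libraries, and edgeR adjusted p was between 0.361 and 0.878. The last exon of Hadha shares 75 of 1657 bases with Garem2 on the opposite strand, a gene without a row in the table. Hadhb (ENSMUSG00000059447.13), the thiolase subunit, had 18.6, 24.1, 28.7, 27.6 and 21.8 CPM in young HSC. In aged HSC it had 30.1, 18.2, 29.1, 28.3 and 31.7 CPM, the low value again in aged replicate 2, and after NR 28.5, 19.7, 22.2, 25.6 and 22.9 CPM. With age its log2 fold change was 0.23 ± 0.16 (SE, edgeR adjusted p = 0.331), the opposite sign to that of Hadha at -0.16 ± 0.12 (SE, edgeR adjusted p = 0.361), and neither passed. Although the shared promoter window lies between the RefSeq starts of both genes, their counts did not keep 1 ratio over libraries. Counting error is part of this spread, as with 14 Hadhb and 50 Hadha counts in aged replicate 2. The ratio of Hadhb to Hadha counts ran from 0.276 to 0.496 in young, 0.280 to 0.558 in aged and 0.284 to 0.441 in NR-treated HSC, so the groups overlapped.

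Acaa2, the 3-ketoacyl-CoA thiolase of the last step, had 65.6, 67.9, 64.2, 42.1 and 63.9 CPM in young HSC and 57.4, 74.0, 76.9, 78.2 and 73.7 CPM in aged HSC. After NR it had 75.4, 52.5, 78.2, 65.0 and 66.7 CPM. In aged HSC 4 of 5 libraries were above every young one, and the log2 fold change was 0.24 ± 0.14 (SE, edgeR adjusted p = 0.241). Eci1, an enoyl-CoA isomerase that moves the double bond of unsaturated chains, had 121.4, 131.8, 93.0, 95.8 and 111.9 CPM in young HSC, 117.8, 132.3, 139.1, 120.2 and 137.8 in aged HSC and 142.9, 127.3, 134.2, 128.9 and 122.0 after NR. Its differences from young HSC were 0.22 ± 0.11 with age (SE, edgeR adjusted p = 0.157) and 0.24 ± 0.11 after NR (SE, edgeR adjusted p = 0.242). Neither gene passed in any of the 3 comparisons.

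Summed over the 9 enzymes, the level was 576.8 to 708.9 CPM in young, 686.3 to 806.0 in aged and 720.5 to 768.2 in NR-treated HSC, with medians of 613, 783 and 755 CPM. The NR-treated libraries lay within the aged range and above all young libraries. The mature cell markers made up 0.0831% to 1.17% of the counts in young, 0.789% to 1.14% in aged and 0.0598% to 0.145% in NR-treated libraries. Their part in the sum was not tested.

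Across the 15 libraries, each enzyme was set against the mean of the other 8 (log2 CPM, each gene standardised). The correlation was 0.76 for Acadl, 0.59 for Cpt2, 0.52 for Eci1 and 0.39 for Acadm. It was 0.24 to 0.29 for Cpt1a, Hadhb and Acaa2, 0.09 for Acadvl and -0.47 for Hadha. Of 10054 other genes averaging 5 CPM or more, those most like the mean of all 9 included Pfkfb3 (r = 0.91), Impdh2 (0.90), Tbk1 (0.90) and Rpl32 (0.88), whose ranks were the same with a larger prior count. All genes share the depth and composition of each library, so these values only describe these libraries.

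The other genes of fatty acid metabolism were taken from 10 lists with 102 genes, of which 93 had a row. By the edgeR quasi-likelihood test 10 rose and 7 fell with age, where 9.68% of all genes tested rose and 9.63% fell. Between NR-treated and aged HSC 3 were higher and 6 lower, beside 3.88% and 4.18% of all genes. Between NR-treated and young HSC 3 were higher and 6 lower, beside 2.56% and 1.91% of all genes. The medians over the 93 were 0.11, -0.09 and -0.0020 on the log2 scale, against -0.03, 0.02 and -0.00 over all genes.

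**Figure D3:**
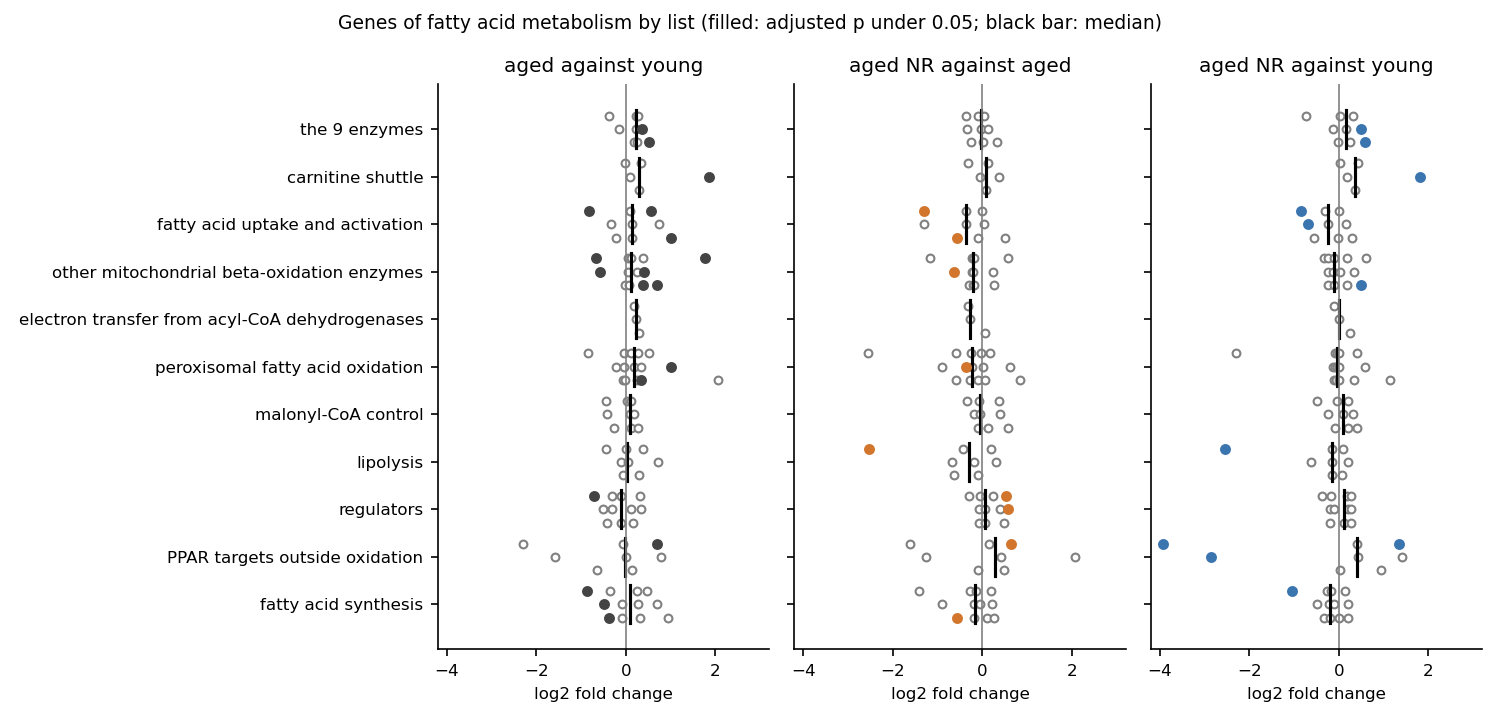
Log2 fold change (horizontal axes) of the 9 enzymes and of each gene of the 10 lists in the 3 comparisons, with filled points for an adjusted p under 0.05 in edgeR, open points for the others and a black bar for each median. Peroxisomal genes have 2 filled points with age, both above 0, and 1 between NR-treated and aged HSC, below 0.

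Peroxisomal oxidation shortens very long and branched chains outside mitochondria. Of 15 measured genes, 2 rose and 0 fell with age by the edgeR quasi-likelihood test, beside 9.68% and 9.63% of all genes, and 1 of these was lower after NR than in aged HSC (4.18% of all genes). With age 4 had an unadjusted p under 0.05, beside 5357 of all 16154 genes, and 1 of the 4 was lower, Abcd4. It was called by edgeR's likelihood ratio test (log2 fold change -0.84) and by DESeq2 (-0.87) but not by limma voom, and the likelihood ratio test also called Acox2 higher (2.05). Scp2, whose products include a peroxisomal thiolase and a lipid transfer protein, had 60.0, 63.9, 62.9, 53.0 and 56.6 CPM in young HSC and 72.8, 57.1, 82.7, 76.3 and 80.5 CPM in aged HSC. After NR it had 61.9, 53.7, 55.2, 58.4 and 59.4 CPM. In aged HSC 4 of 5 libraries were above every library of the other groups, and aged replicate 2 lay among them. The log2 fold change was 0.34 ± 0.11 with age (SE, edgeR adjusted p = 0.0348) and -0.38 ± 0.11 for NR-treated against aged HSC (SE, edgeR adjusted p = 0.0395). These calls held in 9 and 8 of the 15 fits without 1 library, with edgeR adjusted p of up to 0.103 and 0.123. Amacr, a racemase for branched chains, rose from 7.14 to 14.4 CPM with age (edgeR adjusted p = 0.0145), a call kept in all 15 such fits, and had 9.26 CPM after NR, which did not pass against aged HSC. Between NR-treated and young HSC 0 of the 15 were called by edgeR, DESeq2 or limma voom. The edgeR quasi-likelihood test called 2.56% of all genes higher and 1.91% lower there. At an unadjusted p under 0.05 there was 1, Abcd2, beside 2903 of all 16154 genes. The mature cell markers, taken as a sum, were also high in aged and low in NR-treated libraries, and their part in these values was not tested.

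**Figure D4:**
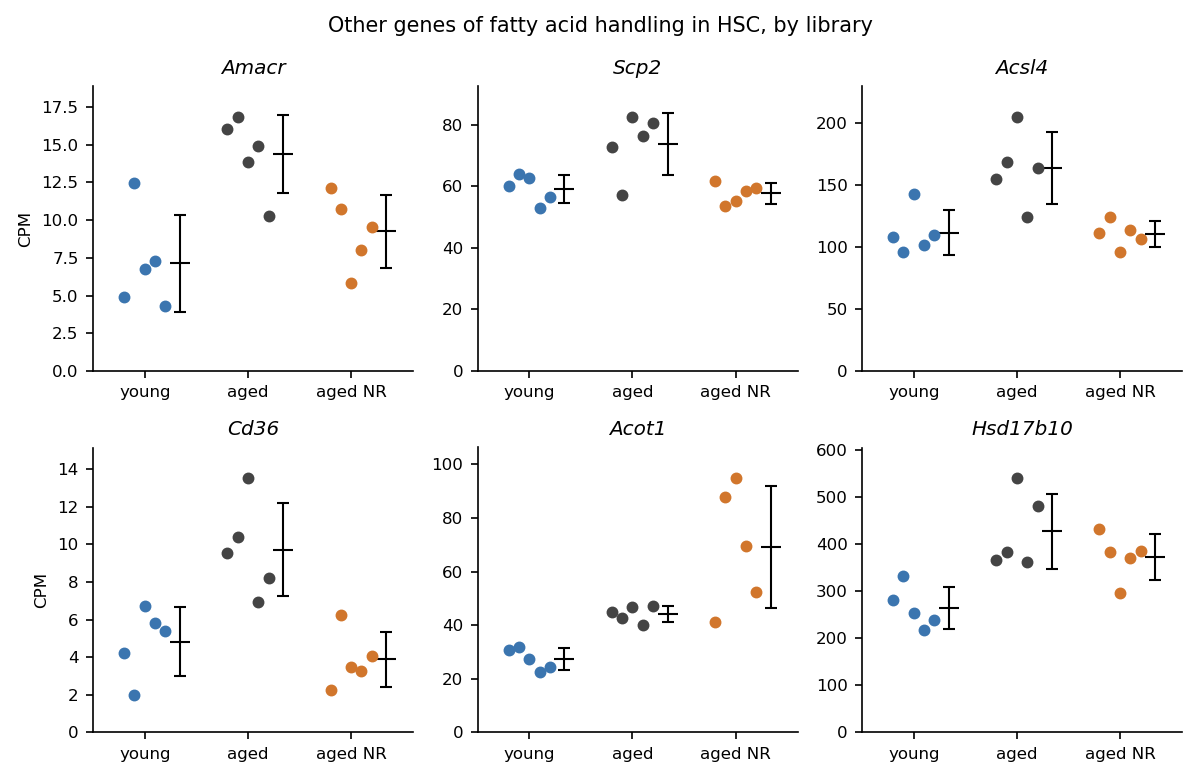
CPM of 6 genes of fatty acid handling (vertical axes from 0) in each library, with bars for mean ± SD of the 5 libraries of a group. Cd36 is higher in every aged library than in any other, and Acot1 is at 41.2 to 94.9 CPM after NR against at most 31.7 CPM in young HSC.

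Genes of fatty acid uptake and activation showed both directions. Cd36, a fatty acid transporter at the cell surface, had 2.0 to 6.7 CPM in young, 6.9 to 13.5 in aged and 2.3 to 6.3 after NR, with a log2 fold change of 1.004 ± 0.32 with age (SE, edgeR adjusted p = 0.0312) and -1.31 ± 0.32 after NR against aged HSC (SE, edgeR adjusted p = 0.0188). Both calls of Cd36 were lost without aged replicate 3 (log2 0.82 and -1.12, edgeR adjusted p = 0.123 and 0.0781), that with age also without young replicates 1, 2 or 5 (edgeR adjusted p = 0.0638, 0.0583 and 0.0501) and that after NR also without NR-treated replicate 4 (edgeR adjusted p = 0.0515). Cd36 is also expressed by several kinds of mature blood cell. Acsl4, an acyl-CoA synthetase with a preference for polyunsaturated chains, had means of 111.5, 163.5 and 110.2 CPM in young, aged and NR-treated HSC, with changes of 0.55 ± 0.13 and -0.57 ± 0.13 (SE), the latter not called without aged replicate 3 (-0.46, edgeR adjusted p = 0.0612). Young replicate 3, with the highest mature marker share of its group, was at 142.8 CPM of Acsl4, inside the aged range of 124.4 to 205.2 CPM. The part of mature cells in that value was not tested. Acsl3, a synthetase of the endoplasmic reticulum and lipid droplets, fell from 27.1 to 15.3 CPM with age and was at 15.03 CPM after NR (edgeR adjusted p = 0.014 against young). Acss1, which makes acetyl-CoA from acetate in mitochondria, was lower after NR than in young HSC, at 19.5 against 31.4 CPM, a call kept in 11 of the 15 fits without 1 library (edgeR adjusted p of up to 0.0739). In all, 2 of 9 measured genes of this list rose and 1 fell with age by the edgeR quasi-likelihood test, beside 9.68% and 9.63% of all genes, and 2 were lower after NR than in aged HSC, beside 4.18% of all genes.

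Among the other mitochondrial enzymes, 4 of 13 rose and 2 fell with age by the edgeR quasi-likelihood test, beside 9.68% and 9.63% of all genes. Hsd17b10, an NAD-dependent hydroxyacyl-CoA dehydrogenase that is also a subunit of mitochondrial RNase P, rose from 264.6 to 427.3 CPM with no overlap (log2 fold change 0.69 ± 0.14, edgeR adjusted p = 0.00185) and was at 373.7 CPM after NR, which was called against young HSC (edgeR adjusted p = 0.043) but in 7 of the 15 fits without 1 library. Decr1, a reductase for chains with several double bonds, rose from 71.1 to 95.1 CPM, again with no overlap, and had 80.7 CPM after NR. Acads, the short-chain acyl-CoA dehydrogenase, fell with age from 25.7 to 17.7 CPM (edgeR adjusted p = 0.0183), the opposite direction to Acadm and Acadl, with the call lost without aged replicate 5 (-0.51, edgeR adjusted p = 0.0542). Acadsb, which acts on short branched chains, was lower after NR than in aged HSC, at 24.2 against 37.2 CPM (edgeR adjusted p = 0.0112). Acad12 was called higher with age, but aged replicate 4 held 107.4 CPM against 11.2 to 17.5 CPM in the other aged libraries, without it the log2 fold change went from 1.77 to 0.60 and the call was lost (edgeR adjusted p = 0.0982). Ech1 rose and Acad11 fell as well, named here after their values were seen. The 3 genes that carry electrons from acyl-CoA dehydrogenases to the respiratory chain, Etfa, Etfb and Etfdh, had fitted values above 0 with age. By edgeR, DESeq2 or limma voom 0 of the 3 passed in any comparison. At an unadjusted p under 0.05 there was 1 with age, Etfdh, beside 5357 of all 16154 genes. Between NR-treated and aged HSC there was 1, Etfa, beside 4048 of all genes.

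In the carnitine shuttle, 1 of 5 measured genes passed the edgeR quasi-likelihood test. This gene was called higher with age and after NR against young HSC, beside 9.68% and 2.56% of all genes. It was Cpt1c, a relative of Cpt1a found at the endoplasmic reticulum and mostly in brain. It had 3 to 7 counts per library in young HSC, with means of 1.97 CPM in young, 7.05 in aged and 6.90 in NR-treated HSC, and both older groups were above every young library (edgeR adjusted p = 0.000432 and 0.00143). The remaining 4, which include the carnitine acylcarnitine translocase Slc25a20 and the carnitine transporter Slc22a5, did not pass that test in any comparison. DESeq2 and limma voom also called Crot higher with age (log2 fold change 0.33 and 0.36), and edgeR's likelihood ratio test and DESeq2 also called Slc25a20 higher after NR than in young HSC (0.43 in both). None of the 9 genes of malonyl-CoA control, which set the brake on CPT1 (acetyl-CoA carboxylases, malonyl-CoA decarboxylase and subunits of AMP-activated kinase), passed in any comparison by edgeR, DESeq2 or limma voom. At an unadjusted p under 0.05 there were 0 as well. Of all 16154 genes, 5357 were under that limit with age, 4048 after NR against aged and 2903 after NR against young HSC.

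Of the regulators, 11 had a row, and Ppara and Pparg did not. By the edgeR quasi-likelihood test 1 fell and 0 rose with age, beside 9.63% and 9.68% of all genes. Between NR-treated and aged HSC 2 were higher and 0 lower, beside 3.88% and 4.18%. After NR against young HSC 0 were called by that test, beside 2.56% higher and 1.91% lower. Young and aged libraries did not overlap for 2, where 12.4% of all genes showed this. Rxrb, a partner receptor of the PPARs, fell with age from 48.6 to 29.1 CPM with no overlap (log2 fold change -0.71 ± 0.12, edgeR adjusted p = 0.000635) and had 42.7 CPM after NR, higher than in aged HSC (0.52 ± 0.12, edgeR adjusted p = 0.0176). Sirt3, an NAD-dependent deacetylase of mitochondrial enzymes, among them long-chain acyl-CoA dehydrogenase, had 44.5, 35.9 and 53.7 CPM in young, aged and NR-treated HSC, and the difference of NR-treated from aged HSC passed (0.57 ± 0.16, edgeR adjusted p = 0.034). Ppard, which mediates PPAR signalling in HSC, was not called in any comparison, and it had 1 to 41 counts per library, with means of 3.33, 3.88 and 3.997 CPM in young, aged and NR-treated HSC. Sirt3 was called in 9 of the 15 fits without 1 library, with edgeR adjusted p of up to 0.101. DESeq2 also called Nrf1 higher after NR than in aged HSC (log2 fold change 0.50, DESeq2 adjusted p = 0.0458). Limma voom also called Esrra lower with age (-0.73, limma voom adjusted p = 0.0419).

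Among PPAR targets outside oxidation, 1 of 8 rose with age by the edgeR quasi-likelihood test, beside 9.68% of all genes, and 0 fell, beside 9.63%. By the same test 1 was higher after NR than in aged HSC, beside 3.88% of all genes. Against young HSC 1 was higher and 2 were lower after NR, beside 2.56% and 1.91% of all genes. With age 2 of the 8 had an unadjusted p under 0.05 and were lower, Fabp1 and Fabp3, where 5357 of all 16154 genes were under that limit in either direction. EdgeR's likelihood ratio test called both, limma voom called Fabp1 and DESeq2 called neither. Acot1, a cytosolic thioesterase that frees fatty acids from acyl-CoA, had 22.5 to 31.7 CPM in young HSC and 40.0 to 47.2 CPM in aged HSC. After NR it had 41.2, 87.9, 94.9, 69.4 and 52.3 CPM, higher than in both other groups (log2 fold change 0.63 ± 0.18 against aged and 1.34 ± 0.19 against young, edgeR adjusted p = 0.0383 and 0.000151). The call against aged HSC held in 7 of the 15 fits without 1 library and that against young HSC in all 15. Acot1 is closely related in sequence to Acot2, so reads may be split between them, and Acot2 had 165.3, 164.8 and 220.6 CPM with no call. Fabp1 and Fabp3, fatty acid binding proteins, were called lower after NR than in young HSC by the edgeR quasi-likelihood test, Fabp1 also by DESeq2 and neither by limma voom, at very few counts, with 3 to 8 and 0 to 8 counts per young library against 0 to 2 and 0 to 1 after NR. Of 8 lipolysis genes the edgeR quasi-likelihood test called 1, G0s2, an inhibitor of adipose triglyceride lipase, and 0 with age. The call was lower after NR, where 4.18% of all genes were lower against aged and 1.91% against young HSC. With age 9.68% of all genes rose and 9.63% fell. With age 3 of the 8 had an unadjusted p under 0.05, beside 5357 of all 16154 genes. EdgeR's likelihood ratio test, DESeq2 and limma voom each called 1, Abhd5, a coactivator of adipose triglyceride lipase, as higher (log2 fold change 0.73, 0.71 and 0.84). G0s2 had 2 to 8 counts per young library, 2 to 21 per aged library and 0 to 3 after NR, where it was called lower than in both other groups. These calls held in 9 (Fabp1), 2 (Fabp3), 12 (G0s2 against aged) and 8 (G0s2 against young) of the 15 fits without 1 library.

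Fatty acid synthesis, the reverse pathway, had 12 measured genes, of which 3 fell and 0 rose with age by the edgeR quasi-likelihood test, beside 9.63% and 9.68% of all genes. The likelihood ratio test, DESeq2 and limma voom also called 3 with age, and 2 others, Elovl1 and Oxsm, were higher at an unadjusted p under 0.05. Under that limit were 5357 of all 16154 genes in either direction. Scd2, a desaturase, fell from 158.7 to 86.5 CPM and was at 76.7 CPM after NR, lower than in young HSC (edgeR adjusted p = 0.00905). Acly, which makes cytosolic acetyl-CoA, fell from 83.3 to 63.1 CPM, and Fasn, fatty acid synthase, from 58.0 to 40.0 CPM, both with no overlap between young and aged libraries, though Fasn was called in 7 of the 15 fits without 1 library. After NR these 2 genes had 77.0 and 47.8 CPM and passed against neither group. Elovl6, which lengthens C16 chains, was lower after NR than in aged HSC, at 91.6 against 136.0 CPM (edgeR adjusted p = 0.0124).

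**Figure D5:**
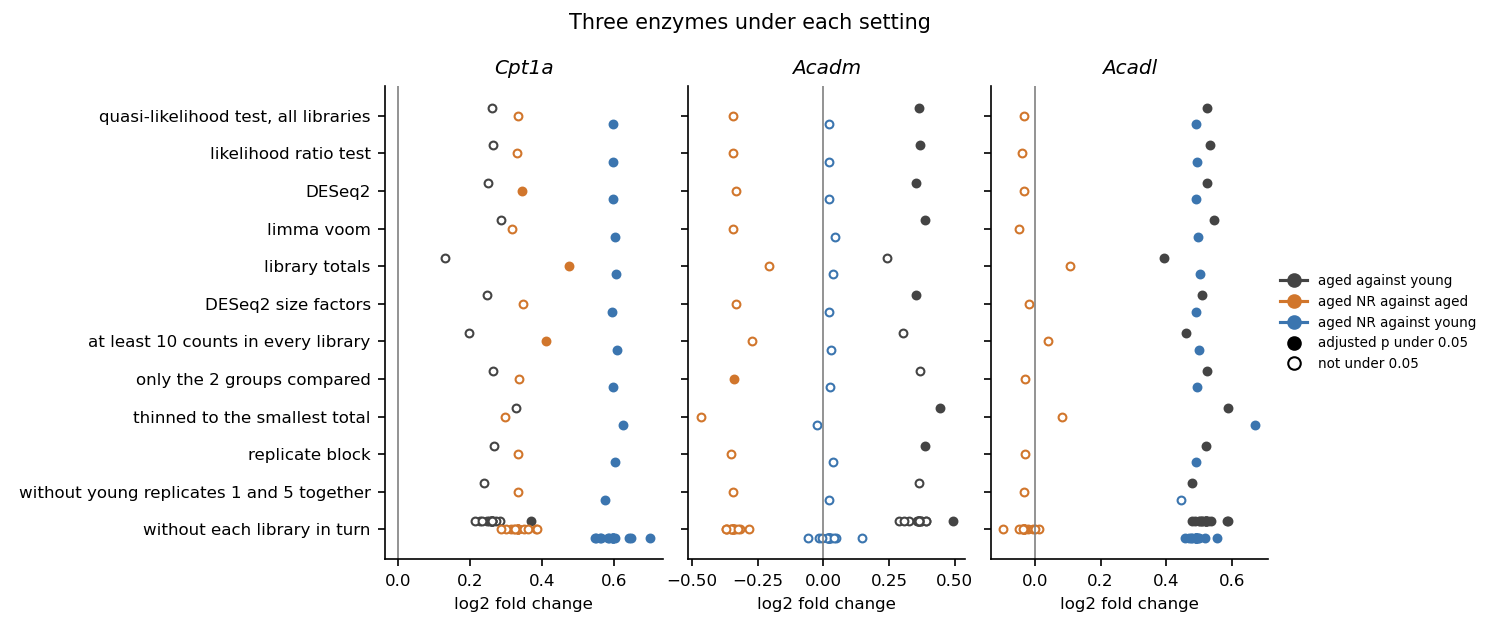
Log2 fold change (horizontal axes) of Cpt1a, Acadm and Acadl under each setting, in black for aged against young, orange for NR-treated aged against aged and blue for NR-treated aged against young, filled where the adjusted p was under 0.05. Acadl is filled with age in every row, and Acadm is filled with age in some rows and open in others at similar values.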

How the data were processed

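RNA was extracted from sorted HSC of individual mice and 3′ biased libraries were primed from poly(A) with a 10 base unique molecular identifier. The authors aligned reads with STAR 2.4.2a to GRCm38, removed duplicates by identifier, counted reads on exons with featureCounts and deposited raw whole-number counts per gene, without normalisation, for genes above 5 reads and 2 CPM in at least 2 samples. All 15 columns were used. Here, edgeR 4.0.16 (R 4.3.3) was run on the counts of all 16154 genes with TMM scaling and no factor besides the group. Its quasi-likelihood test gave the p-values, which were adjusted for all genes by the Benjamini-Hochberg method. The study had used likelihood ratio tests, which were run as an alternative, as were DESeq2 1.42.0 and limma 3.58.1 (voom). The fits were tested on simulated data. SE and 95% intervals are those of the fit. CPM use the TMM sizes, and marker shares the library totals.

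The genes, the pathway lists and the marker lists were chosen with earlier results of these data known. Named list genes are at most 4 per list and comparison with the lowest adjusted p. A few genes of these lists are not reported here and are in none of the list counts. No values were tested over the list alone. Library totals ran from 764119 to 13318989 counts, and 3 counts correspond to 3.89 CPM in the shallowest library and 0.254 CPM in the deepest. This limit covers counting error only. No library of a group repeated another, since chi-square values between them were 3.00 to 16.7 times their degrees of freedom. Gene and exon positions are from GENCODE M21 on GRCm38, a later release than the authors counted on. Promoter windows and their starts are from RefSeq. Python 3.11.15 was used for the rest.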

Additional observations from a re-analysis of the deposited data

Results flagged for a closer look

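Within a group of 5 libraries, 9 of 93 gene and group sets held a library far from the other 4 by Dixon's ratio, which flags about 1 set in 20 by chance. Of the 9 enzymes, Hadhb was lowest in aged replicate 2 at 18.2 CPM, against 28.3 CPM in the next library. Acaa2 was lowest in young replicate 4 at 42.1 CPM, next to 63.9 CPM, and in aged replicate 1 at 57.4 CPM, next to 73.7 CPM.

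Among the other genes, Acsl4 was highest of the young group in replicate 3 at 142.8 CPM. Acad12 had 107.4 CPM in aged replicate 4, where the next library had 17.5 CPM, and Acadsb had 45.8 CPM in aged replicate 5. Fasn was lowest in aged replicate 2 at 27.2 CPM. After NR, G0s2 was highest in replicate 3 at 1.17 CPM, from 3 counts, and Fabp3 in replicate 1 at 0.282 CPM, from 1 count, with the other 4 libraries at 0.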

How the results depend on the processing

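Of the 9 enzymes, 2 were called with age and 1 with library totals in place of TMM, with at least 10 counts in every library, with only the 2 groups compared and without young replicates 1 and 5 together, Acadm being the call lost. Between NR-treated and aged HSC 0 were called and 1 under DESeq2, library totals or the count minimum (Cpt1a) and with only the 2 groups compared (Acadm). After NR against young HSC 2 were called and 1 (Cpt1a) without young replicates 1 and 5 together. Fits without 1 library called 1 to 2, 0 to 1 and 2 to 2 of the enzymes in the 3 comparisons. Of the list genes 17, 9 and 9 were called, against 6, 2 and 3 with counts thinned to the smallest total and 10, 7 and 5 without young replicates 1 and 5 together. Without 1 library they numbered 12 to 19, 3 to 10 and 4 to 9, the fewest after NR against aged without aged replicate 3, and against young without NR-treated replicates 2 or 4. Other fits without 1 library that moved these counts by over 1.5 times gave 5 without aged replicate 5 and 4 without NR-treated replicate 4 (against aged), and 5 without young replicates 3 or 4 or NR-treated replicate 5 (against young). With library totals the median of all genes moved to -0.16 with age and 0.16 after NR against aged, and 29.1% and 78.4% of calls were higher, against 50.1% and 48.1% with TMM. The count minimum gave 59.3% after NR against aged.

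Signs that turned belonged to differences that were not called. With thinned counts these were Cpt2 (-0.066) and Hadhb (-0.00080) with age, Acadl (0.084), Hadha (-0.0012) and Hadhb (0.15) after NR against aged, and Acadm (-0.025) and Hadhb (0.15) after NR against young. After NR against aged, Acadl was 0.11 and Acaa2 0.049 with library totals, and Acadl 0.042 with the count minimum. Without 1 library, the fold changes ran from -0.058 to 0.15 for Acadm and -0.0997 to 0.046 for Hadhb after NR against young, and from -0.096 to 0.014 for Acadl, -0.0067 to 0.081 for Hadha and -0.014 to 0.057 for Eci1 after NR against aged. The cause was not tested. With the replicate number as a block, 2, 0 and 2 enzymes and 14, 7 and 6 list genes were called. No pairing of libraries by number was seen. Same-numbered libraries correlated by 0.00666 on average over 15 pairs, and 0 of 15 libraries correlated best with their own number in both other groups. The quasi-likelihood and likelihood ratio tests and limma voom called the same number of enzymes in each comparison. Depth limited Acadvl, Cpt2 and Ppard most, and aged replicate 2, with 764119 counts, throughout.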
